A study of Salvia dorisiana with 6 samples.

Results

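The 6 transcripts of *Salvia dorisiana* described here are annotated as dehydrogenases or reductases and are distinct from SdPOHDH, the perillyl alcohol dehydrogenase of the study. They were taken by cluster name from the deposited list of selected genes, as 6 of its 85 transcripts, which holds further reductases such as clust2675. RNA was sequenced from greenhouse plants multiplied by cutting, with no treatment named, as 1 library per tissue: small leaves (under 3 cm), medium leaves (3–10 cm), large leaves (over 10 cm), stem, roots and isolated trichomes. The trichomes were a mixed fraction stripped from shoot tips and young foliage, a source that none of the leaf libraries matches, and the age and number of plants in a library are not given in the sources used here. The authors had selected the list on these same libraries for a trichome level above 1000 RPKM (reads relative to coding length and to the library's mapped total) and for 2 correlations, with *SdLS* (limonene synthase) and with pathway metabolites. A high level in trichomes is therefore a condition of entry to the list. A peak there is favoured by the selection and is not a result about the 6 transcripts.

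The pathway studied leads from limonene over an alcohol and an aldehyde to perillic acid and its methyl ester, methylperillate, in glandular trichomes, the epidermal hairs in which mints and sages make and store volatile terpenes. Dehydrogenases can carry the steps from alcohol to aldehyde and from aldehyde to acid by passing hydride to NAD or NADP, and many such enzymes run as reductases in the other direction. Plant enzymes of this kind fall into a few protein families. Short-chain dehydrogenases/reductases carry the Pfam domain adh_short, medium-chain zinc-type dehydrogenases carry ADH_zinc_N, and aldehyde dehydrogenases carry Aldedh. A Pfam domain or a BLAST hit names the nearest known family or protein and not the substrate of the *Salvia* enzyme.

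Of the 6 transcripts, 4 had adh_short, and no other listed transcript had it. The first, clust3515, had as its best BLAST hit a *Salvia fruticosa* protein like phenylcoumaran benzylic ether reductase (PCBER), and it carried 11 Pfam domains, NmrA among them. Reductases of this type act on lignan-like phenylpropanoid dimers. The second, clust3054, was closest to the chloroplastic short-chain dehydrogenase TIC 32, known from pea and *Arabidopsis* as a protein of the inner envelope import machinery. The third, clust3165, was closest to a menthol dehydrogenase of *Mentha canadensis*, and in mint, enzymes of that class interconvert menthone and menthol. The fourth, clust4242, was closest to a peroxisomal trans-2-enoyl-CoA reductase, which in mammals saturates enoyl-CoA during fatty acid elongation. The domains KR and NAD_binding_10 were shared by clust3515, clust3054 and clust3165, and adh_short_C2 by clust3054, clust3165 and clust4242. Both remaining transcripts belong to other families. One of them, clust3274, was closest to an NADP-dependent 2-alkenal reductase, an enzyme that reduces reactive unsaturated aldehydes, and had the domain ADH_zinc_N, as did SdPOHDH and clust2675. The other, clust1416, was closest to aldehyde dehydrogenase family 2 member C4, which in *Arabidopsis* oxidizes coniferaldehyde and sinapaldehyde to ferulic and sinapic acids, and was the only listed transcript with Aldedh. Coding lengths here are those of the reference regions between stop codons, and need not be those of the full enzymes. As recovered from the RPKM values, they were 819 nt for clust4242, 924 nt for clust3515 and 963 nt for clust3274. Those of clust3054, clust3165 and clust1416 were 966, 999 and 1539 nt. These are the shortest lengths that gave whole fragments, and longer multiples fit as well.

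Low fragment counts limit the root values most, although the root library, at 6516794 mapped fragments, was not the shallowest. The recovered totals ran from 3314347 mapped fragments in trichomes to 19415968 in medium leaves, and every one of the 6 transcripts had at least 3357 fragments in trichomes and at least 789 in each leaf library. In stem the lowest of them had 142 fragments and in roots 10. Intervals given here are exact 95% intervals and cover counting error only, since no tissue has a second library. For the same reason differences between tissues could not be tested. Of all mapped fragments, 35.6% fell on the list of 85 in trichomes and 4.18% or less in every other library. When totals were taken without them, all trichome levels rose by 0.64 on the log2 scale, and levels in other libraries by at most 0.06.

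The most abundant of the 6 was not the same in every tissue. In trichomes clust3515 stood alone at 22701 RPKM, and the other 5 lay between 1237 and 3012 RPKM. In large leaves the most abundant of the 6 was clust3274, and in stem and roots it was clust4242, the lowest of them in trichomes. The share of clust3515 in the summed RPKM of the 6 was 69.0% in trichomes, 56.1% in small leaves, 40.9% in medium leaves, 17.4% in large leaves and 29.5% in stem, and it was lowest in roots. That of clust4242 was 3.76% in trichomes and 73.6% in roots. The 6 together took 3.21% of the mapped trichome fragments, but 0.284% of those of small leaves and 0.0289% of those of roots.

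**Figure D1:**
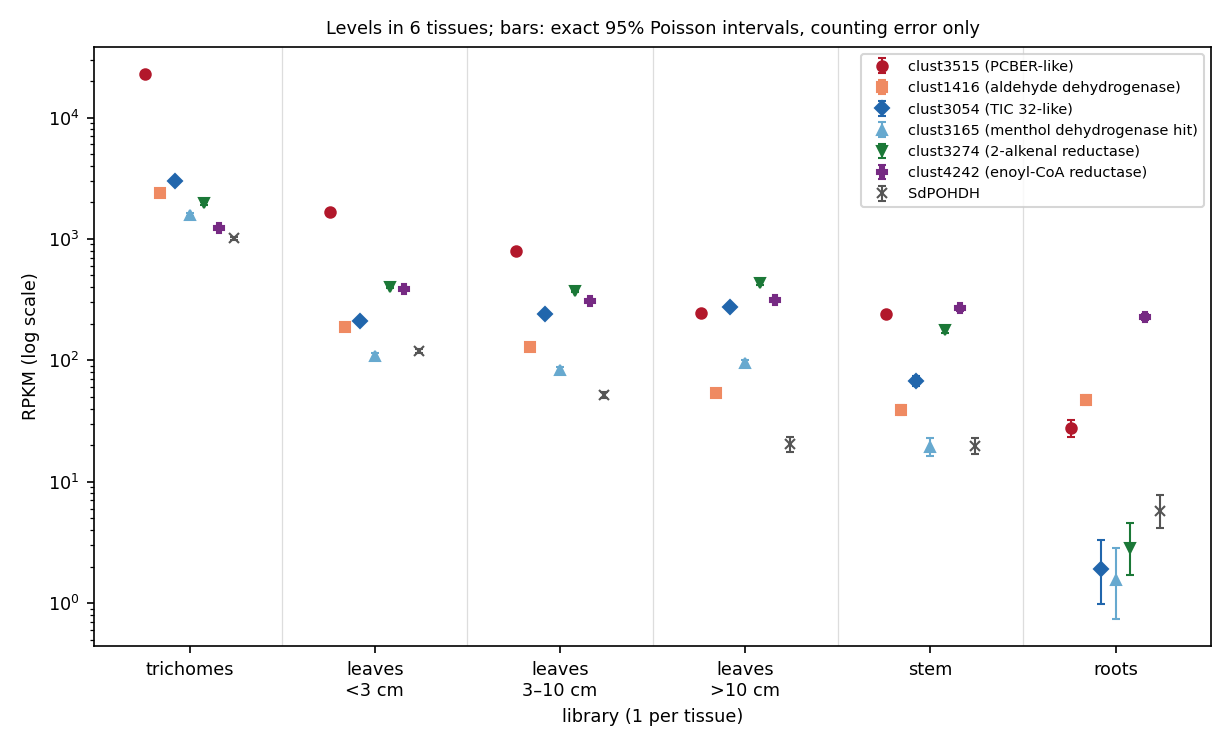
RPKM (log axis) of the 6 transcripts and SdPOHDH in the 6 libraries, 1 per tissue, with bars for exact 95% Poisson intervals that cover counting error only. In trichomes clust3515 stands at 22701 RPKM, and in roots clust4242 at 225 RPKM stands above clust3054, clust3165 and clust3274 at 1.91, 1.54 and 2.87 RPKM.

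**Figure D2:**
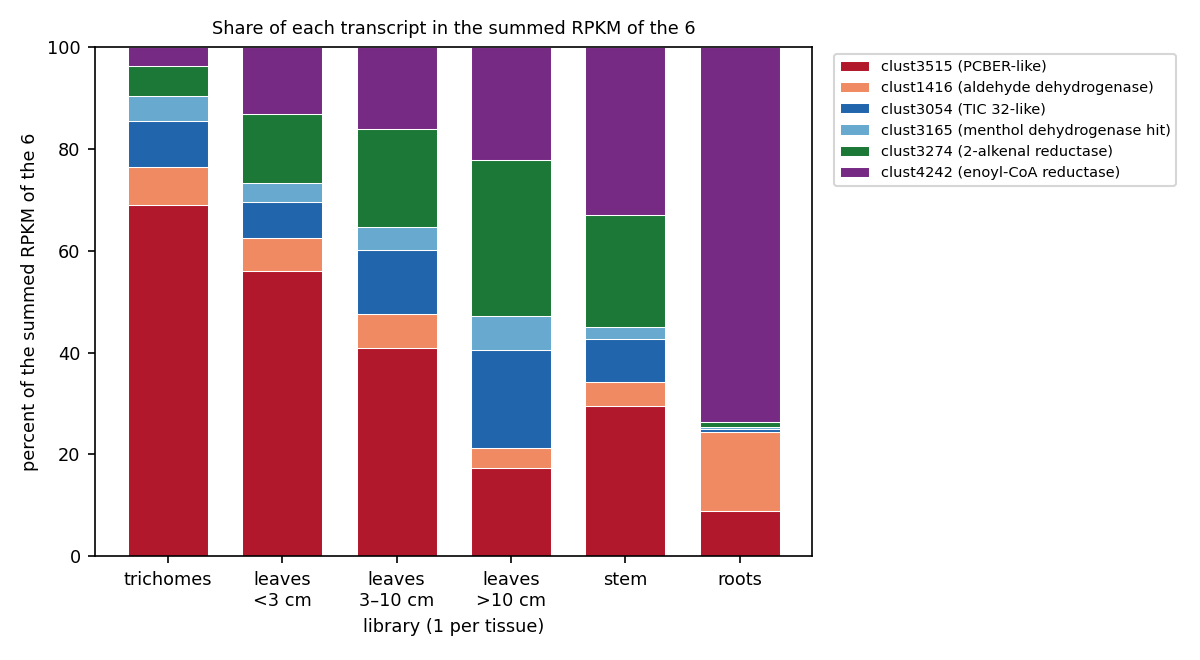
Share of each transcript in the summed RPKM of the 6, in percent, by library. The share of clust3515 goes from 69.0% in trichomes to 17.4% in large leaves, and in roots clust4242 makes up 73.6%.

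The reductase-like transcript clust3515 had the highest RPKM of the list in trichomes, close above *SdLS* at 22369 RPKM (22249–22490), and was lower in each larger leaf class. Whole leaves include their trichomes, and in bulk RNA fewer cells of a type and less RNA per cell cannot be told apart. It was at 22701 RPKM in trichomes (22533–22870), 1657 in small leaves (1635–1678), 788 in medium leaves (775–801), 246 in large leaves (236–257), 239 in stem (228–251) and 27.6 in roots (23.5–32.1). Large leaves and stem, a ratio of 0.971 (0.910–1.04), did not differ beyond counting error, and all other neighbours in this order did. Trichomes were 13.7 times small leaves (13.5–13.9) and 823 times roots. From the smallest to the largest leaves the level became 6.72 times lower. Set against *SdLS* in the same library, clust3515 was at 1.01 times its level in trichomes, 0.912 in small leaves, 0.762 in large leaves, 0.559 in stem and 0.0605 in roots. The ratio thus stayed between 0.559 and 1.01 in the aerial libraries and was far lower in roots. A further listed transcript with the NmrA domain, clust3478, of unknown function by its BLAST hit, was at 1265 RPKM in trichomes and 57.6 in roots, so that clust3515 was 17.9 times as abundant in trichomes and 0.479 times in roots.

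The aldehyde dehydrogenase clust1416 was, of the 6, the nearest to *SdLS* by the difference of log2 levels relative to trichomes described further on. Its level was 2393 RPKM in trichomes (2350–2435), 189 in small leaves (183–194), 130 in medium leaves (126–134), 54.2 in large leaves (50.5–58.1), 39.2 in stem (35.6–43.0) and 47.1 in roots (42.9–51.5). All neighbours in this order differed beyond counting error, roots and stem by 1.20 times (1.05–1.37). It alone of the 6 was higher in roots than in stem, an order that 23.5% of the listed transcripts had. As a ratio to the SdLS cluster of the same library, it was at 0.107 in trichomes, 0.104 in small leaves, 0.128 in medium leaves, 0.168 in large leaves, 0.0916 in stem and 0.103 in roots. Across a range of levels from 39.2 to 2393 RPKM this ratio stayed within 0.0916 and 0.168. Correlation with *SdLS* over these libraries was itself a condition of entry to the list, so the ratio is given as a description.

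The short-chain dehydrogenases clust3054 and clust3165 were high in trichomes, nearly level across leaf sizes, low in stem and covered by few fragments in roots. The TIC 32-like clust3054 was at 3012 RPKM in trichomes (2952–3073), 212 in small leaves (205–220), 243 in medium leaves (236–250), 273 in large leaves (263–284), 67.4 in stem (61.5–73.8) and 1.91 in roots (0.985–3.33). It was higher at each step to a larger leaf, and large leaves were 1.29 times small leaves (1.22–1.36). The menthol dehydrogenase-like clust3165 was at 1578 RPKM in trichomes (1535–1621), 109 in small leaves (104–114), 83.7 in medium leaves (79.7–87.9), 94.2 in large leaves (88.1–101), 19.4 in stem (16.3–22.9) and 1.54 in roots (0.737–2.83). Neighbours in the order of either transcript differed beyond counting error. Trichomes were 14.2 times small leaves for clust3054 (13.6–14.8) and 14.5 times for clust3165 (13.7–15.3), intervals that overlap. Stem was 4.05 times below large leaves for the former and 4.86 times for the latter. The root values rest on 12 and 10 fragments.

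The 2-alkenal reductase-like clust3274 had the smallest spread across leaf sizes of the 6 and the lowest ratio of roots to stem of the whole list. It was at 1966 RPKM in trichomes (1918–2016), 401 in small leaves (391–411), 373 in medium leaves (364–382), 433 in large leaves (419–447), 179 in stem (169–189) and 2.87 in roots (1.70–4.53). The highest leaf library was 1.16 times the lowest, and only 3 listed transcripts had a smaller spread. Trichomes were 4.90 times small leaves (4.73–5.08). Roots were at 1.60% of the stem level (0.946–2.54), from 18 fragments against 1263, and the next listed transcripts lie within that interval. The list holds a second transcript with the same hit and the same pair of domains, clust2675, which was at 2923 RPKM in trichomes, 431 in small leaves, 298 in medium leaves, 274 in large leaves, 464 in stem and 185 in roots. In large leaves clust3274 was 1.58 times as abundant as clust2675, and in roots clust2675 was 64.6 times as abundant as clust3274. Because a read could be placed on several transcripts, similar sequences of a family may share reads, and how far this touched the 2 reductases was not tested.

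The enoyl-CoA reductase-like clust4242 varied least among tissues of the 6. It was at 1237 RPKM in trichomes (1195–1279), 388 in small leaves (377–399), 311 in medium leaves (302–320), 315 in large leaves (303–328), 267 in stem (254–281) and 225 in roots (213–239). Large leaves and medium leaves, a ratio of 1.01 (0.965–1.06), did not differ beyond counting error. Trichomes were 3.19 times small leaves (3.05–3.33) and 5.49 times roots. Roots were at 18.2% of the trichome level (17.0–19.5), against 1.97% for clust1416 and 0.0633–0.146% for the other 4 transcripts. The median over the list was 0.234%.

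Across leaf sizes the 6 transcripts split into clust3515 and clust1416, lower in larger leaves, and 4 with small differences. A lower level at each step to a larger leaf was seen in these 2 of the 6, and in 65 of the 85 listed transcripts (76.5%). The same 2 were at least 2-fold lower in large leaves than in small leaves, which 60% of the list were. For the other 4 the highest leaf library was between 1.16 and 1.30 times the lowest, against a list median of 2.57. They ranked 4, 6, 7 and 8 of 85 from the least spread. In large leaves all 4 were above their level in medium leaves, by 1.01 to 1.16 times, an order that 17.6% of the list had. For clust4242, at 1.01 (0.965–1.06), this difference was within counting error. In clust3054 and clust3274 large leaves were also above small leaves, as in 10.6% of the list. The median log2 ratio of large leaves over small leaves, on RPKM + 1, was −0.25 for the 6 and −1.34 for all 85. The alcohol dehydrogenase SdPOHDH was at 119 RPKM in small, 51.9 in medium and 20.3 in large leaves. It was thus below all 6 transcripts in large leaves, where clust3274 was 21.3 times as abundant, and between clust3165 and clust1416 in small leaves.

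**Figure D3:**
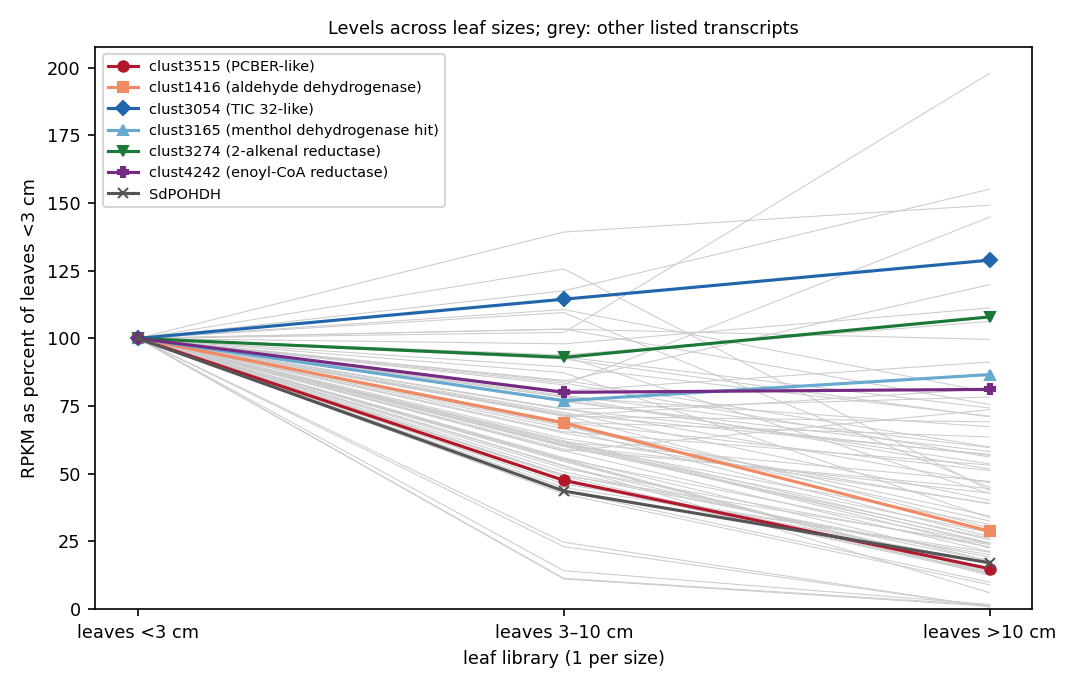
RPKM in 3 leaf libraries as percent of small leaves, for the 6 transcripts, SdPOHDH (grey crosses) and the other listed transcripts (thin grey lines). In large leaves clust3515 is at 14.9%, SdPOHDH at 17.1% and clust1416 at 28.7%, while the other 4 lie between 81.2% and 129%.

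Trichomes were at least 10-fold above small leaves in 4 of the 6, with a background of 51.8% over the list. These were clust3515, clust1416, clust3054 and clust3165, between 12.7 and 14.5 times. The medians of the log2 ratio were 3.72 for the 6 and 3.35 for the list. Below 10-fold were clust3274 and clust4242, with log2 ratios of 2.29 and 1.67 that ranked 70 and 75 of 85, and SdPOHDH at 8.48 times (8.03–8.95). Set against medium leaves in place of small leaves, the ratio was 28.8 for clust3515, 18.8 for clust3165, 18.4 for clust1416, 12.4 for clust3054, 5.27 for clust3274 and 3.98 for clust4242. The same 4 transcripts were above 10-fold against either leaf set, and 76.5% of the list were against medium leaves. Since the list was chosen for trichome expression, these ratios describe the transcripts and are no evidence of enrichment.

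Stem was at least 2-fold below large leaves in 3 of the 6, clust3054, clust3165 and clust3274, against 27.1% of the list. Their log2 ratios, on RPKM + 1, were −2.00, −2.22 and −1.27, and clust3165 ranked 82 of 85. Of the other 3, clust1416 was at the list median of −0.46, and clust4242 at −0.24 and clust3515 at −0.04 were above it. Between stem and roots, 4 of the 6 were at least 2-fold lower in roots (clust3515, clust3054, clust3165 and clust3274), against 63.5% of the list, a share close to theirs. On the same scale the ratio of roots over stem was −5.54 for clust3274, the lowest of 85, and −4.56 for clust3054, which ranked 83. It was −3.07 for clust3515 and −3.01 for clust3165. These values depend on the pseudocount because root levels were low. With a pseudocount of 0 and of 10 in place of 1, clust3274 was at −5.96 and −3.88 (ranks 85 and 84), clust3054 at −5.14 and −2.70 (ranks 79 and 78) and clust3165 at −3.66 and −1.35 (ranks 65 and 53). By contrast clust4242 was at −0.25 and clust1416 at 0.26. The 3 transcripts that were lowest in roots were below SdPOHDH there, at 5.76 RPKM from 43 fragments, although each was above it in trichomes, where SdPOHDH was at 1009 RPKM.

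**Figure D4:**
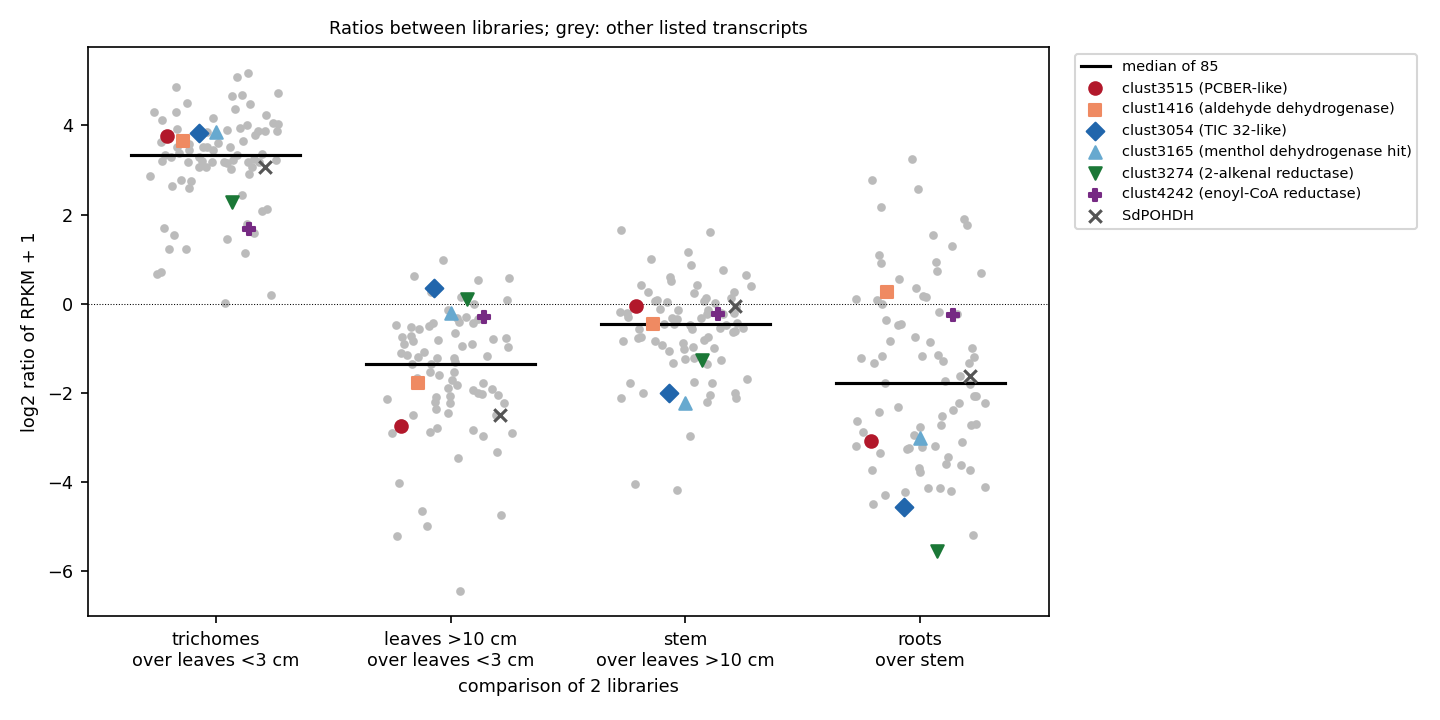
Log2 ratio of RPKM + 1 between pairs of libraries, for the 6 transcripts, SdPOHDH and the other listed transcripts (grey dots), with a black line at the median of 85. For roots over stem clust3274 is lowest at −5.54, and for large leaves over small leaves clust3054 is at 0.36 and clust3515 at −2.74.

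Tissue profiles were compared by the root mean square difference of the log2 levels relative to trichomes, over the 5 other libraries. A difference of 0 means the same relative profile, and the median over the 3570 pairs of listed transcripts was 2.21. Among the 6, only clust3054 and clust3165 were within 1 of each other, at 0.62, and clust3515 and clust4242 were farthest apart, at 4.56. Nearest to clust3515 were clust1812, a ketoacyl-ACP synthase by its hit, at 0.13 and clust70, a copalyl diphosphate synthase by its hit, at 0.17. For clust1416 it was the SdLS cluster at 0.33, followed by clust3337, closest to a lavandulyl diphosphate synthase, at 0.58. Conversely clust1416 was the nearest of all 84 other transcripts to the SdLS cluster, which the study also assigns to a eucalyptol synthase. In roots they were at 1.97% and 2.04% of their trichome levels, and SdL7H at 0.141%. Of the 6, clust1416 was also the nearest to SdPOHDH, at 0.77, but ranked 6 among all 84. To SdL7H (limonene 7-hydroxylase) clust1416 was at 1.68 and ranked 43 of 84. There clust3165 at 0.75, clust3515 at 0.80 and clust3054 at 0.99 were nearer. This order rests on roots, where clust1416 was at 3.59 times SdL7H. Outside roots clust1416 stayed between 0.187 and 0.258 times SdL7H and varied least of these transcripts. The ranges outside roots were 0.105–0.442 times for clust3165, 1.16–2.44 for clust3515 and 0.210–1.28 for clust3054. The sabinene synthase SdSaS (clust1265, like a trans-alpha-bergamotene synthase by its hit) was nearest to both clust3054, at 0.22, and clust3165, at 0.45. Second nearest were clust1854, closest to a malonyltransferase, at 0.53 for clust3054 and clust976, closest to a carotenoid cleavage dioxygenase, at 0.50 for clust3165. The nearest to clust3274 was clust458, closest to the wax biosynthesis protein ECERIFERUM 1, at 0.56, and its next nearest, clust4440, closest to a phytyl naphthoquinone methyltransferase, was already at 1.21. For clust4242 they were clust2906, closest to a dehydration-responsive protein, at 0.37 and clust5995, closest to a CuZn superoxide dismutase, at 0.43. All these points share the same libraries, and a low root count weighs on them. The root library can also dominate a difference where counts are higher. Against SdLS, clust3515 was at 0.559 to 1.01 times in the aerial libraries and 0.0605 times in roots, from 166 and 5279 root fragments.

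**Figure D5:**
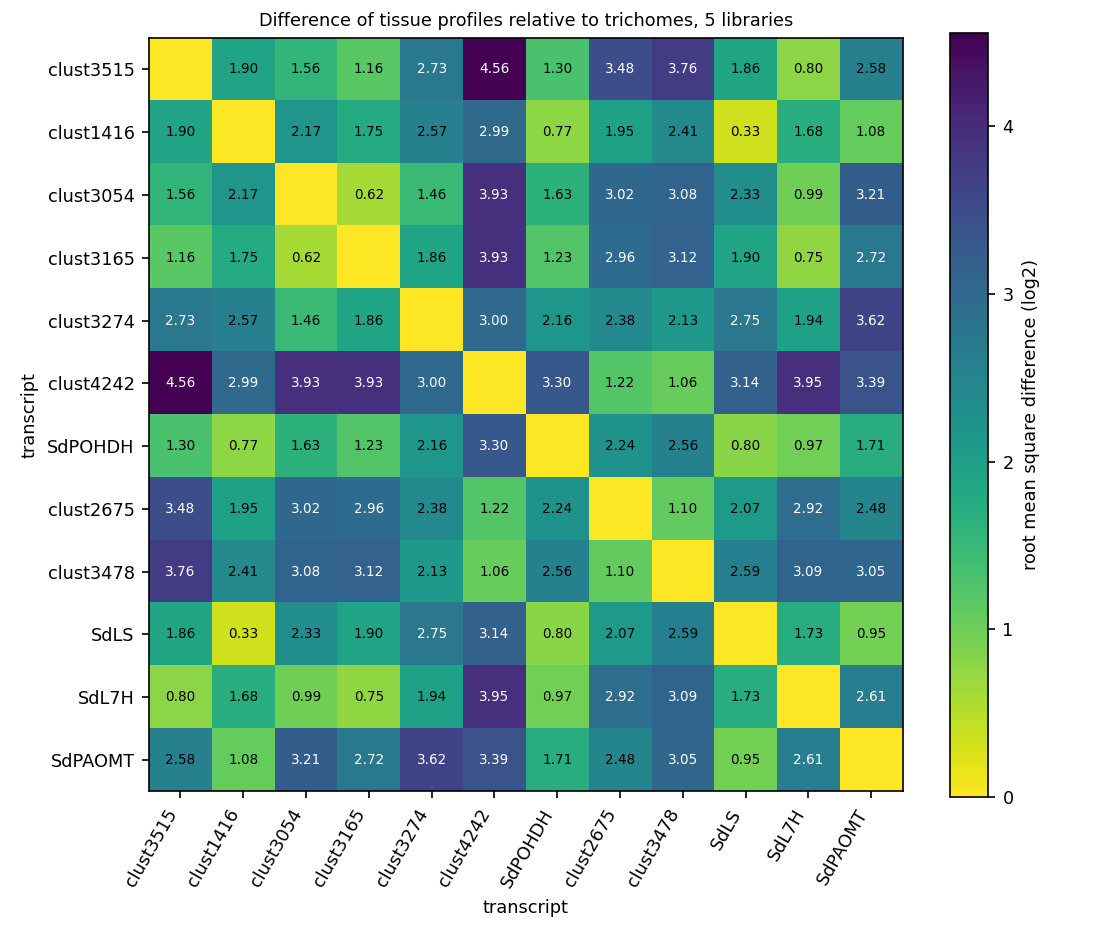
Root mean square difference (log2) between the tissue profiles of the 6 transcripts, SdPOHDH, clust2675, clust3478 and the pathway genes SdLS, SdL7H (limonene 7-hydroxylase) and SdPAOMT (perillic acid methyltransferase), over 5 libraries relative to trichomes. The pair of clust1416 and SdLS is at 0.33, and the pair of clust3515 and clust4242 at 4.56.

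The Pearson correlation with *SdLS* on the RPKM scale, one of the values on which the list was chosen, hardly told the 6 apart. Over the 6 libraries it was lowest for clust3274, at 0.978, and 0.995 or more, as rounded, for the other 5. Without the trichomes library, over 5 libraries, it was 0.981 for clust3515, 0.978 for clust1416, 0.807 for clust4242, 0.614 for clust3165, 0.445 for clust3274 and 0.357 for clust3054, against a list median of 0.871. With small leaves also left out, over 4 libraries, it was 0.895 for clust3515, 0.953 for clust1416 and between 0.261 and 0.333 for the other 4. On log2(RPKM + 1) over all 6 libraries it was 0.991 for clust1416, 0.955 for clust4242, 0.906 for clust3515, 0.796 for clust3165, 0.705 for clust3054 and 0.588 for clust3274, the lowest of the list. The libraries share their depth and scaling over all transcripts, and the coefficients are given as a description.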

How the data were processed

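RNA of 6 tissues was sequenced as stranded read pairs, 1 library each, and the submitters' processing notes name CASAVA 1.8.1. The authors mapped pairs with CLC Genomics Workbench to consensus sequences of regions between stop codons (600 nt or longer) in trichome PacBio transcripts. Both strands and multiple placements of a read were accepted, and each pair gave 1 count. Close sequences had been merged into clusters, and the study assigns the cluster called SdLS here to a eucalyptol synthase as well. The authors deposited RPKM values for 85 transcripts selected on these libraries, with BLAST hits, Pfam domains and 2 columns of their own correlations, which were not used. All its RPKM columns matched a sample (0 did not), and transcripts outside it were not analysed here.

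RPKM was used as deposited, without a filter, and fold ratios, percents and their intervals are plain ratios of RPKM. Log2 ratios, ranks of them, counts past a fold and profile differences are on log2 of RPKM + 1 (pseudocount 1), which understates ratios of low transcripts. With 1 library per tissue there was no test. A transcript was counted past a fold of 10 for trichomes over small leaves and of 2 otherwise, beside the same count over all 85. Since RPKM is fragments over coding length and library total, fragments were recovered by searching lengths in steps of 3 from 600 to 3300 nt, the upper limit chosen after seeing the data, for the smallest totals that gave whole fragments. All 510 of 510 values were whole within 0.001 fragments. Tested on simulated data, 5 tables of 85 transcripts, the search found 100% of totals and every fragment count of 99.5% of transcripts. True counts can be multiples, which would narrow the intervals. Intervals of levels are exact Poisson and those of ratios exact binomial (Clopper-Pearson), both at 95%. The transcripts named besides the 6 were SdPOHDH, clust2675, clust3478, the pathway genes and, for each of the 6, the 2 transcripts with the nearest profile. Members, comparisons and lists were chosen with earlier results of these data known. Ratios between 2 named genes, the shares of the summed RPKM and the ranks by leaf spread were added after seeing the values. Scripts ran under Python 3.11.15 with scipy 1.17.1, numpy 2.4.6, matplotlib 3.10.9 and pandas 2.3.3.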

Additional observations from a re-analysis of the deposited data

How the results depend on the processing

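The counts of transcripts past a fold, and of those lower in each larger leaf class, were recomputed with a pseudocount of 0 and of 10, with at least 10 fragments in both libraries, with totals that leave out the listed transcripts, with medium leaves beside trichomes, and for neighbours whose counting intervals do not overlap. In all 19 alternatives the count was that of the report. The filter of at least 10 fragments kept all 6 transcripts in each comparison, so it could not change a count. Of 72 single log2 ratios under a changed pseudocount or total, 0 changed sign. A pseudocount of 10 moved 8 of 24 beyond their counting interval, among them roots over stem, to −2.73 for clust3515, −2.70 for clust3054, −1.35 for clust3165 and −3.88 for clust3274, and leaving out the listed transcripts moved 6 of 24, all for trichomes over small leaves. Root values of clust3054, clust3165 and clust3274 rest on 10 to 18 fragments. With 1 library per tissue, no library could be left out as a replicate. No paired analysis was possible because each tissue has 1 library and no test was made.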
